A study of Mus musculus with 10 samples.

Results

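The subunits of the proteasome and the proteins that assemble, activate or inhibit it were followed in the hippocampus of genetically identical mice that differed in exploration. The members were all probe sets of the array whose annotation gives exactly 1 gene symbol formed of Psm, a letter from a to g and a number. This rule gave 103 probe sets of 49 genes, out of 45101 probe sets and 18194 genes on the array, and it used no measured value. Whole hippocampus came from inbred female Balb c/J mice born on 1 day, and the labels name no transgene and no drug. The mice were ranked by a composite of open field measures (ambulation, and path, time and entries in the centre) taken over several days and lighting conditions. The High Exploration group held 5 mice from the top of that ranking and the Low Exploration group 5 from the bottom, each with its own array, and their age at tissue collection is not given in the sources used here. Values are log2 of the deposited signal, and a difference is High Exploration minus Low Exploration. In bulk tissue a lower signal can come from fewer cells of a type or from less RNA per cell, which cannot be told apart.

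The proteasome degrades proteins that carry ubiquitin chains. Its 20S core is a barrel of stacked rings, with alpha subunits (Psma genes) in the outer rings that gate the entrance and beta subunits (Psmb genes) in the inner rings, some of which cut peptide bonds. The 19S cap recognises ubiquitin, removes it, and unfolds and threads the substrate into the barrel by means of a ring of ATPases (Psmc genes) and further subunits (most Psmd genes). Immune signals such as interferon exchange the catalytic beta subunits for immunoproteasome forms, and other activators (Psme genes) can replace the cap. In neurons the proteasome is known for protein turnover at synapses.

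Promoters are shown for 3 alpha ring genes that varied together (Psma1, Psma2 and Psma3), for the cap ATPase gene Psmc6 and for the inhibitor gene Psmf1. Of the 2 tested probe sets of Psmc6, 1 had one of the 5 smallest p among upward members (adjusted p not under 0.05). Of the 2 tested probe sets of Psmf1, 1 was lower in High Exploration mice without overlap of the groups, as were 6.69% of all tested probe sets. Each sequence is the 250 bases before the gene start in RefSeq on GRCm38.p6, and capitals mark any match to the motifs searched.
Psma1 (chr7:114276117-114276366, minus strand): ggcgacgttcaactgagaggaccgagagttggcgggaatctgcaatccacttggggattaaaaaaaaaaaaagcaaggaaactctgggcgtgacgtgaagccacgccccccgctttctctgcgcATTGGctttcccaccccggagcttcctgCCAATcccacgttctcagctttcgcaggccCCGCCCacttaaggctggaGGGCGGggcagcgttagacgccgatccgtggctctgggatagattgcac
Psma2 (chr13:14612992-14613241, plus strand): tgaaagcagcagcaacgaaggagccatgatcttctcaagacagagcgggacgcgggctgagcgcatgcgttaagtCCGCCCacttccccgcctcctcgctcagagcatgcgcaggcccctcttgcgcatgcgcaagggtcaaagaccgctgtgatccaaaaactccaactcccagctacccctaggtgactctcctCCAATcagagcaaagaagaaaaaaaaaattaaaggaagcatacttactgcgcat
Psma3 (chr12:70974373-70974622, plus strand): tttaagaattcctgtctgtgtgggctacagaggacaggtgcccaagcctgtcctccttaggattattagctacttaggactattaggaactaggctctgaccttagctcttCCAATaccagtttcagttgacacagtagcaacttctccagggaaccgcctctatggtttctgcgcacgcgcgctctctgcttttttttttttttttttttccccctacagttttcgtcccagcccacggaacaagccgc
Psmc6 (chr14:45329574-45329823, plus strand): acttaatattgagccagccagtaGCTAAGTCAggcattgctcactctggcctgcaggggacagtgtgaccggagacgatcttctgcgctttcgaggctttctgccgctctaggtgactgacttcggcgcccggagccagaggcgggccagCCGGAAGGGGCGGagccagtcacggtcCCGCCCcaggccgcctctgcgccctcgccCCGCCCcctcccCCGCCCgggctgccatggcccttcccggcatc
Psmf1 (chr2:151741311-151741560, minus strand): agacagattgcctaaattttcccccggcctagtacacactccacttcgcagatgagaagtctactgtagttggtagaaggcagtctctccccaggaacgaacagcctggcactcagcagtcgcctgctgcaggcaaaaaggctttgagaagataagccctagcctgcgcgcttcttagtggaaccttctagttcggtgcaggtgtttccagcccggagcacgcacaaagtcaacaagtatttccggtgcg
The motifs, searched on both strands, were the CCAAT box, the GC box with the letters GGGCGG, the ETS site with the letters CCGGAAG, the core of the antioxidant response element with the letters TGACNNNGC and the GAS element with the letters TTCNNNGAA. In Psmc6 the ETS site and a GC box adjoin without overlap. RefSeq promoters were found for 41 of the 49 genes, 44 windows in all. The CCAAT box stood in 36.4% of them, against 33.8% of all 32851 mouse promoter windows, and in 5 of the 8 alpha ring windows. The GC box stood in 50% against 32.7%, and the ETS site in 31.8% (14 windows) against 6.91%. The antioxidant core stood in 11.4% against 10.2% and the GAS element in 4.55% against 7.02%. The Psmf1 window held none of the 5 motifs. These matches describe letters in a window and were not tested for binding.

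To ask whether proteasome expression differed with exploration, every probe set with a mean log2 signal above 7.43, the median over the array, was compared with limma, with Benjamini-Hochberg adjustment over all 22518 of them. Of the members, 61 probe sets of 40 genes were tested. None of the 61 reached an adjusted p under 0.05, and the lowest adjusted p was 0.0631. Over the whole array 3 probe sets, 0.0133%, reached it. At an unadjusted p under 0.05, 9 of the 61 members were higher in High Exploration mice, against 9.67% of all tested probe sets, and 3 of 61 were lower, against 20.5%. Whether members differ from the array in these shares was not tested. At an adjusted p under 0.1 there were 9 members, against 15.7% of all. The groups did not overlap in 2 members, both lower in High Exploration mice, against 6.69% of all tested probe sets, and no member was higher without overlap, against 2.14%.

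The balance of directions was the opposite of that of the array. Of the 61 members, 39 (63.9%) had a positive difference, against 38.1% of all tested probe sets, and their median difference was 0.27 log2 units, against −0.31 overall. Taking for each gene its probe set of highest mean signal, 27 of 40 genes were higher, with a median of 0.39. The balance differed with signal level. Among members in the top decile of mean signal 13 of 18 were higher, close to the 65.6% of all probe sets there, while in the next decile 13 of 15 were higher against 43.6%. In deciles 6 to 8 the count was 13 of 28, against 27.2% of all.

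**Figure D1:**
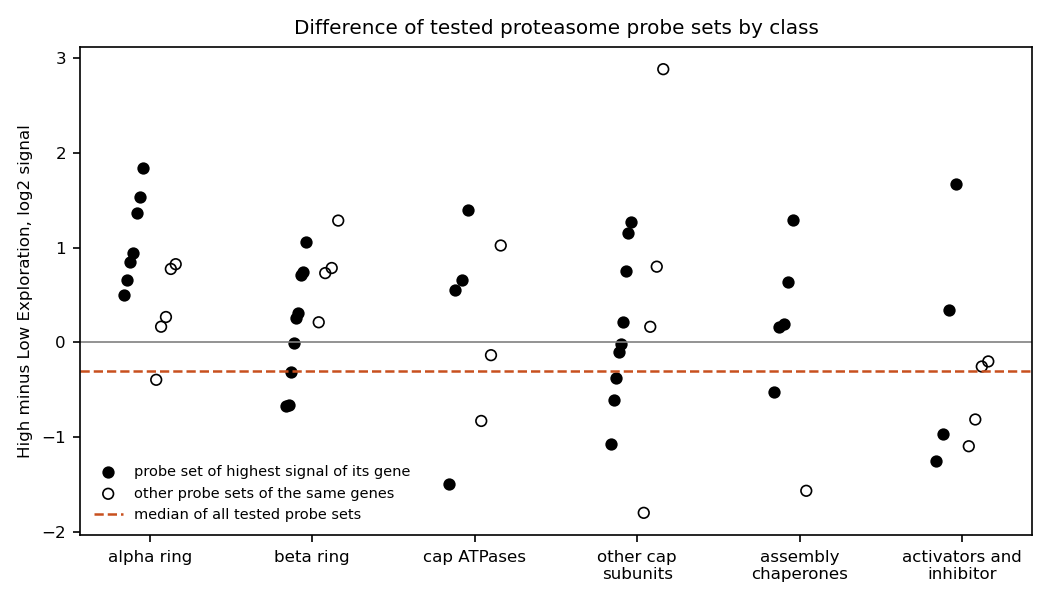
Log2 difference, High minus Low Exploration, of the 61 tested proteasome probe sets except 2 of partner proteins, by class (x axis), 5 mice per group. Filled points are the probe set of highest mean signal of each gene, open points the other probe sets, and the dashed line is the median of all 22518 tested probe sets (−0.31). All 7 filled points of the alpha ring lie above 0, whereas the other classes lie on both sides.

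Some technical measures differed between the groups. The hybridisation controls, spiked in after labelling, had mean log2 signals of 13.06 to 13.85 on High Exploration arrays and 13.74 to 14.54 on Low Exploration arrays, and the poly-A controls, added before labelling, 11.84 to 13.06 on High Exploration and 13.58 to 14.67 on Low Exploration arrays. The log2 ratio of 3′ to 5′ Gapdh signal, which increases with RNA degradation or short amplified product, was 3.96 to 5.21 on High Exploration and 3.49 to 4.06 on Low Exploration arrays. When the level of the hybridisation controls entered the model beside the group, the median difference of the members was −0.069, 44.3% of the members were higher against 43.8% of all tested probe sets, and 2 of the 7 alpha ring genes were. When each array was instead centred on its median, the median of all tested probe sets moved to 0.23 and that of the members to 0.80, and with quantile normalisation they were −0.0090 and 0.49. Then 49 of the 61 members were higher with centring (59.9% of all tested probe sets) and 42 with quantile normalisation (49.7%). With the hybridisation controls set equal 50 were (63.8%). All 7 alpha ring genes were higher in each of these 3 scalings. Centring and equal controls shift the difference of every probe set alike, here upward. Genes higher as deposited therefore had to stay higher there, and only quantile normalisation could have changed their direction. The part of these measures in the results below was not tested.

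As deposited, all 7 tested genes of the alpha ring were higher in High Exploration mice, with a median difference of 0.94 and a range of 0.50 to 1.84, and 11 of their 12 tested probe sets were higher. None passed the adjusted threshold, and 3 genes had an unadjusted p under 0.05. Over the array 38.1% of tested probe sets were higher and 9.67% had such a p upward. Apart from Psma1 and Psma7, which lie in the next decile, these genes lie in the top decile of mean signal. In the top decile 65.6% of all probe sets were higher, and 1207 of 4504 had an unadjusted p under 0.05 upward. In the next decile 43.6% were higher, and 467 of 4504 had such a p. Psma1 (probe set 1415695_at) read 11.31, 12.03, 11.21, 10.34 and 9.52 in High Exploration replicates 1 to 5, against 9.97, 9.22, 8.92, 9.06 and 8.03 in Low Exploration replicates 1 to 5. In 4 of the 5 High Exploration mice it lay above every Low Exploration mouse. The means were 10.88 ± 0.97 in High Exploration and 9.04 ± 0.70 in Low Exploration mice (SD, n = 5 each), a difference of 1.84 ± 0.50 (SE), or 3.59-fold, with a limma adjusted p of 0.0655.

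The other alpha genes are given in detail because of their pattern, chosen after their values were seen. Psma2 read 11.48, 12.46, 12.87, 10.19 and 10.62 in High Exploration mice, against 11.20, 10.28, 9.52, 9.80 and 9.12 in Low Exploration mice, a difference of 1.54 ± 0.56 (limma adjusted p = 0.101). Psma5 (1434356_a_at) read 13.28, 14.44, 14.39, 12.47 and 12.48 in High Exploration mice, against 11.43 to 13.07 in Low Exploration mice, a difference of 1.37 ± 0.49 (limma adjusted p = 0.0976). The other tested probe set of Psma5, 1424681_a_at, differed by 0.27 ± 0.48. In Psma2 and on 1434356_a_at of Psma5 High Exploration replicates 1, 2 and 3 lay above all Low Exploration mice and replicates 4 and 5 lay among them. Psma3 had the same 3 mice on top, at 13.49, 14.08, 14.98, 12.25 and 12.71 in High Exploration mice, against 12.16 to 13.37 in Low Exploration mice, a difference of 0.94 ± 0.50. For Psma4, Psma6 and Psma7 only High Exploration replicate 3 lay above all Low Exploration mice. Their differences were 0.50 ± 0.58, 0.65 ± 0.41 and 0.85 ± 0.60. Without High Exploration replicate 3, 6 of the 7 alpha genes were higher, the median was 0.57, Psma3 was 0.57, Psma7 was 0.28 and Psma4 turned to −0.063. Psma6 was 0.35 without Low Exploration replicate 3.

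The alpha genes also varied together from mouse to mouse within the groups. After the mean of each group was subtracted, the mean correlation over the 21 pairs of alpha genes was 0.749 across 10 arrays, every pair was above 0, and pairs ranged from 0.41 (Psma1 and Psma6) to 0.97 (Psma4 and Psma7). When each array was left out in turn the mean stayed between 0.679 and 0.802. The 9 tested beta genes had a mean of 0.142, with 22 of 36 pairs above 0, and all 40 tested member genes had 0.188. Over all 12 tested alpha probe sets the mean was 0.552. Over all tested probe sets of the array it was 0.00886, and over those of the highest decile, where 5 of the 7 alpha genes lie, it was 0.0248. These correlations are descriptions over 10 arrays that share hybridisation and scaling, and the pairs share genes.

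**Figure D2:**
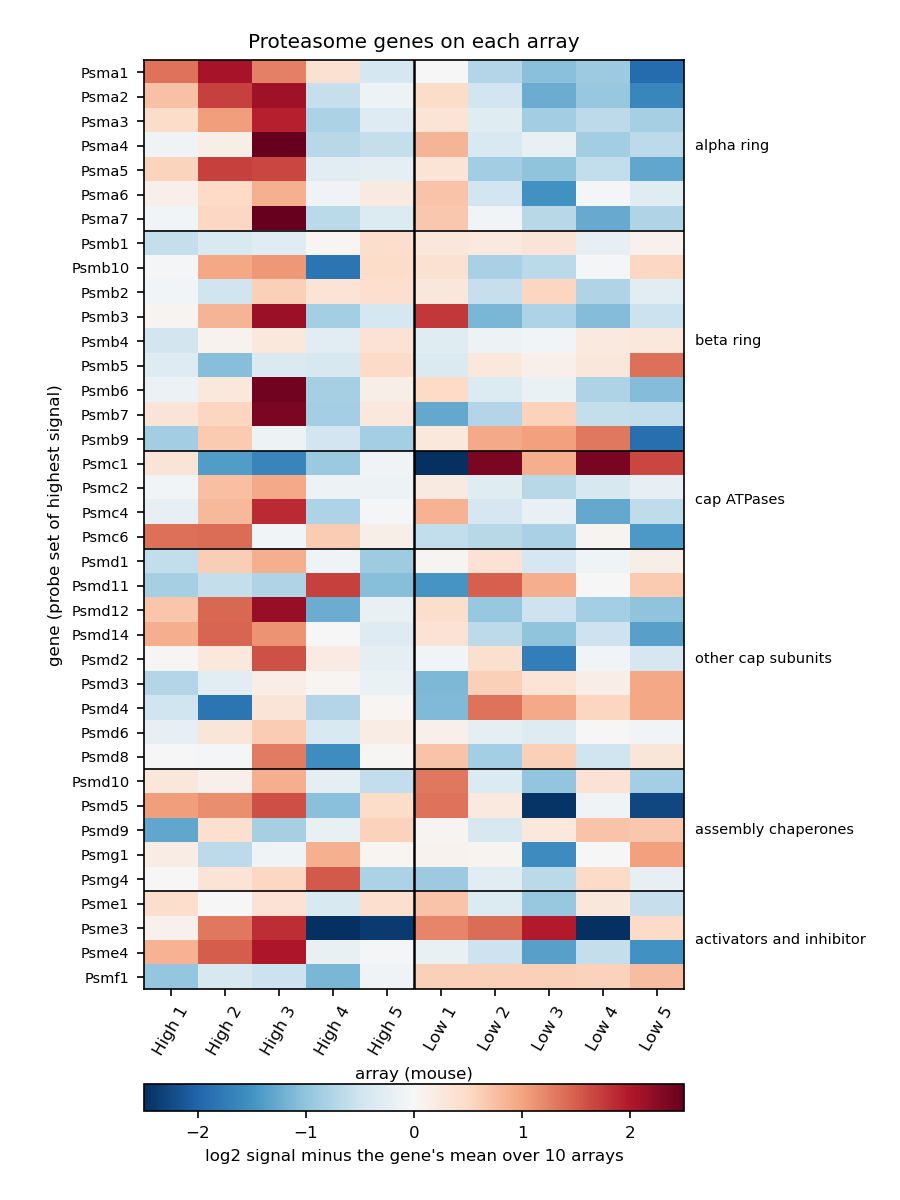
Log2 signal of the 38 tested proteasome genes other than partner proteins (rows, probe set of highest mean signal) on each array (columns, High Exploration then Low Exploration replicates 1 to 5), as the deviation from the gene's mean over 10 arrays. Red is above and blue below the mean, and colours saturate at 2.5 log2 units. The alpha ring rows share one pattern, highest in High Exploration replicate 3 or 2, whereas the other blocks are mixed.

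One mouse stood out across the members. High Exploration replicate 3 was the highest of the 10 arrays for 30 of the 61 tested members (49.2%), against 11.3% of all tested probe sets. The mean deviation of the members was 0.01, 0.34, 0.87, −0.39 and −0.15 in High Exploration replicates 1 to 5, against 0.22, −0.05, −0.40, −0.19 and −0.25 in Low Exploration replicates. The 2 groups thus overlapped, and the spread within High Exploration mice (SD 0.488) was wider than that within Low Exploration mice (SD 0.237). Over all tested probe sets the same array deviated by −0.12. The members whose within-group variation was most like the mean of the other members were Psma3 (r = 0.98) and Psma5 (1424681_a_at, r = 0.97), and the 2 at the other end were Psmd11 (1456059_at, r = −0.58) and Psmf1 (1424371_at, r = −0.53).

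The beta ring was divided. Of its 9 tested genes 5 were higher in High Exploration mice, with a median difference of 0.25. Of its 13 tested probe sets 9 were higher, against 38.1% of all tested probe sets. Only 1 was higher at an unadjusted p under 0.05 (Psmb1, 1448166_a_at, 1.28 ± 0.59), against 9.67% of all. The probe set that stands for Psmb1, 1420053_at, differed by −0.31 ± 0.32, and 1420052_x_at by 0.21 ± 0.43. Among the constitutive catalytic subunits, Psmb7, which carries the trypsin-like activity, averaged 9.07 ± 1.16 in High Exploration and 8.02 ± 0.68 in Low Exploration mice (SD, n = 5 each), a difference of 1.06 ± 0.54 (limma adjusted p = 0.200) that was 0.60 without High Exploration replicate 3. Psmb6, with the caspase-like activity, read 10.14, 10.54, 12.70, 9.46 and 10.43 in High Exploration mice, against 10.79, 9.94, 10.13, 9.51 and 9.21 in Low Exploration mice. Its difference was 0.74 ± 0.55, and 0.23 without High Exploration replicate 3. Psmb5, with the chymotrypsin-like activity, ran the other way, at 11.25, 10.50, 11.21, 11.18 and 12.06 in High Exploration mice and 11.20, 11.84, 11.70, 11.86 and 12.95 in Low Exploration mice, a difference of −0.67 ± 0.40 (limma adjusted p = 0.264). The groups overlapped in all 3 genes.

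Their immunoproteasome counterparts showed no difference past the threshold. Psmb9 averaged 7.80 ± 0.63 in High Exploration and 8.47 ± 1.30 in Low Exploration mice, a difference of −0.67 ± 0.57. Psmb10 averaged 9.39 ± 1.18 in High Exploration and 9.14 ± 0.60 in Low Exploration mice, a difference of 0.25 ± 0.54 that was 0.0099 without High Exploration replicate 3. Psmb8 was among the dimmest of all probe sets, in the lowest decile, at 1.69 to 6.36 in High Exploration and 3.89 to 6.81 in Low Exploration mice, and was not tested.

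To ask whether the immune forms differed relative to the constitutive ones, the log2 ratio of each pair was taken within each array and compared by an exact 2-sided permutation test, for which the smallest possible p is 0.00794. The level of a ratio depends on the 2 probe sets and has no meaning of its own, so only the groups are compared. The ratio of Psmb9 to Psmb6 differed by −1.41 between High and Low Exploration mice (95% interval −3.31 to 0.36, exact p = 0.103, adjusted over 3 ratios 0.310). The ratio of Psmb10 to Psmb7 differed by −0.81 (−2.21 to 0.65, exact p = 0.206, adjusted 0.310) and that of Psmb8 to Psmb5 by −0.04 (−2.25 to 1.88, exact p = 0.960). The last interval takes in several-fold differences in both directions.

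**Figure D3:**
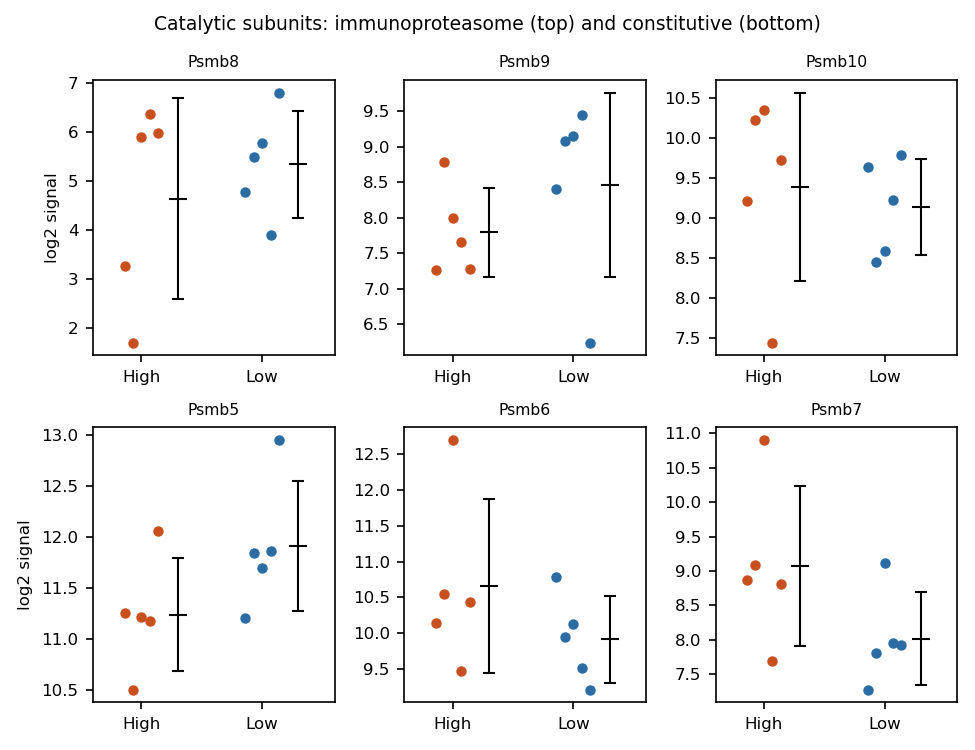
Log2 signal of the immunoproteasome subunits Psmb8, Psmb9 and Psmb10 (top row) and their constitutive counterparts Psmb5, Psmb6 and Psmb7 (bottom row) in each mouse, High Exploration left and Low Exploration right, with the mean and SD beside the points (n = 5 each). The groups overlap in all 6 panels, and a single High Exploration mouse lies far above the rest in Psmb6 and Psmb7.

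Among the cap ATPases 3 of 4 tested genes were higher, against 38.1% of all tested probe sets. Psmc6 (1417770_s_at) read 13.35, 13.39, 11.92, 12.63 and 12.13 in High Exploration mice, against 11.37, 11.29, 11.18, 12.05 and 10.54 in Low Exploration mice. All but 1 High Exploration value lay above every Low Exploration value. The difference was 1.40 ± 0.41, or 2.63-fold, with a limma adjusted p of 0.0706. The other tested probe set, 1417771_a_at, differed by −0.14 ± 0.33. Psmc2 and Psmc4 differed by 0.56 ± 0.35 and 0.66 ± 0.53. Psmc1 ran the other way on both of its probe sets, by −1.50 ± 0.95 and −0.83 ± 0.64. Their means were 7.15 and 7.03 in High Exploration mice, under the signal filter, and 8.65 and 7.86 in Low Exploration mice. Both were thus tested only because of their Low Exploration values.

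The other cap subunits held the member with the biggest difference and some of the lowest. Psmd6, a lid subunit, had a difference of 2.88 ± 0.86 on 1423697_at (limma adjusted p = 0.0731), where High Exploration mice read 11.78, 12.36, 12.60, 10.02 and 9.38 and Low Exploration mice 10.94, 8.95, 5.86, 7.82 and 8.14. The values were scattered over several log2 units in both groups, and the probe set that stands for the gene, 1423696_a_at, differed by 0.22 ± 0.31. Psmd14, the deubiquitinase that strips ubiquitin from substrates, read 14.28, 14.83, 14.50, 13.35 and 13.04 in High Exploration mice, against 13.72, 12.72, 12.36, 12.85 and 12.004 in Low Exploration mice, a difference of 1.27 ± 0.44 (limma adjusted p = 0.0943). Its order of mice resembled that of the alpha genes, with High Exploration replicates 1 to 3 on top.

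Psmd4, a ubiquitin receptor of the cap, was lower in High Exploration mice on both tested probe sets. On 1425859_a_at it read 4.11, 7.54, 6.97, 7.20 and 7.38 in High Exploration mice, against 8.91, 8.58, 8.68, 7.47 and 8.57 in Low Exploration mice. The difference was −1.80 ± 0.60 (limma adjusted p = 0.0873) and was −1.17 without High Exploration replicate 1, the lowest value. The mean of this probe set was 6.64 in High Exploration mice, under the signal filter of 7.43, and 8.44 in Low Exploration mice. It was thus tested only because of its Low Exploration values. On 1418874_a_at the difference was −1.08 ± 0.52, with overlapping groups. Of the 9 tested genes of this class 4 were higher, against 38.1% of all tested probe sets. The median of the 9 genes was −0.01 as deposited but 0.52 when arrays were centred on their medians.

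The assembly chaperones, which help build the barrel or the cap and then leave, had 4 of 6 tested probe sets higher in High Exploration mice. Of all tested probe sets 38.1% were higher. Psmd5 averaged 9.13 ± 1.03 in High Exploration and 7.84 ± 1.66 in Low Exploration mice, a difference of 1.29 ± 0.73 (limma adjusted p = 0.241), with overlapping groups. Psmd9 (1447670_at) was the member with the lowest p. It read 7.39, 5.83, 6.75, 7.49 and 6.31 in High Exploration mice, against 8.52, 7.97, 8.79, 8.30 and 8.04 in Low Exploration mice, so every High Exploration value lay below every Low Exploration value. The difference was −1.57 ± 0.39, or 0.34-fold, with a limma adjusted p of 0.0631. Its mean was 6.75 in High Exploration mice, under the signal filter of 7.43, and 8.32 in Low Exploration mice. It was thus tested only because of its Low Exploration values. The other tested probe set of Psmd9 differed by −0.53 ± 0.42.

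The activators and the inhibitor had 2 of 8 tested probe sets higher, against 38.1% of all tested probe sets. Their median was −0.54 as deposited and 0.091 with the hybridisation controls set equal, and their leading members ran in opposite directions. Psmf1, which encodes the proteasome inhibitor PI31, read 7.77, 8.32, 8.19, 7.58 and 8.65 in High Exploration mice, against 9.33, 9.32, 9.33, 9.32 and 9.50 in Low Exploration mice (1424370_s_at). The groups did not overlap, and 4 of the 5 Low Exploration values lay between 9.32 and 9.33. The difference was −1.26 ± 0.31, or 0.42-fold, with a limma adjusted p of 0.0637, while the other tested probe set differed by −0.26 ± 0.64. Psme4, the activator PA200, read 9.98, 10.62, 11.11, 8.91 and 9.07 in High Exploration mice, against 8.92, 8.58, 7.74, 8.50 and 7.59 in Low Exploration mice on 1426823_s_at. Its difference there was 1.67 ± 0.47, or 3.19-fold (limma adjusted p = 0.0689). Psme1, of the interferon-inducible 11S activator, differed by 0.34 ± 0.38, and Psme3, of its nuclear counterpart, by −0.97 ± 1.05. The mean of this Psme3 probe set was 7.36 in High Exploration mice, under the signal filter, and 8.33 in Low Exploration mice. It was thus tested, and entered the class count and median, only because of its Low Exploration values. The untested probe sets of Psme3 differed by −0.12 and 0.25. The probe set of Psme2 carries several symbols and is no member.

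**Figure D4:**
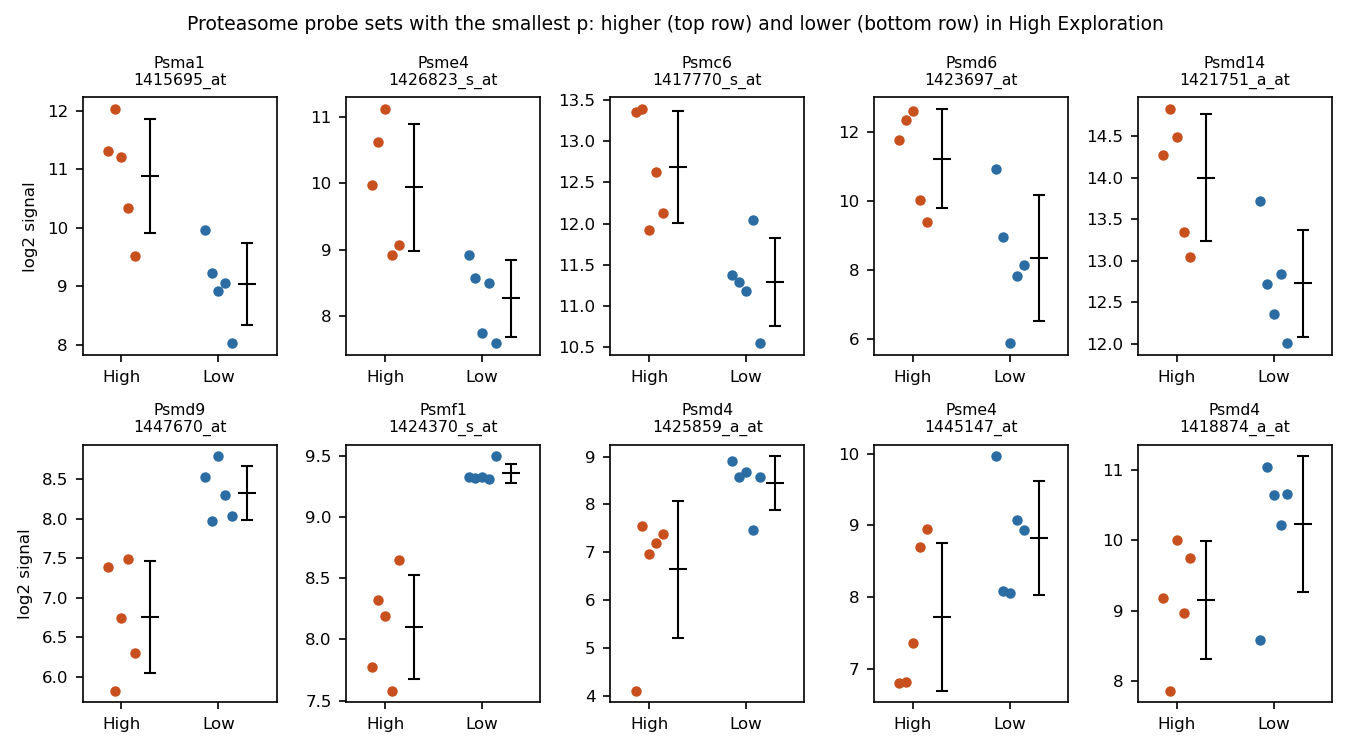
Log2 signal in each mouse for the 5 proteasome probe sets with the smallest p among those higher (top row) and the 5 among those lower (bottom row) in High Exploration mice, High Exploration left and Low Exploration right, with the mean and SD beside the points (n = 5 each). Only Psmd9 and Psmf1 show groups that do not overlap.

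The 5 upward probe sets (Psma1, Psme4, Psmc6, Psmd6 and Psmd14) and the 2 without overlap (Psmd9 and Psmf1) did not pass as deposited, and the call depended on the setting. With each array centred on its median, or with only the 25% of probe sets of highest signal, Psma1, Psmc6 and Psme4 passed, where 3.69% and 2.03% of all probe sets tested passed upward. With limma's array weights all 7 passed, against 2.72% of all upward and 6.99% downward. Without High Exploration replicate 5, Psma1, Psmd6, Psme4 and Psmf1 passed, against 0.768% upward and 3.86% downward. No member passed with quantile normalisation, with the hybridisation controls set equal or as a covariate, with a pseudocount, with an intensity trend or with no filter. With the control level in the model Psma1 was 0.15, Psme4 0.39, Psmc6 0.64, Psmd6 0.67 and Psmd14 −0.065, while Psmd9 was −1.53 and Psmf1 −1.12.

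Probe sets of 1 gene often disagreed. Of the 16 genes with more than 1 tested probe set, 6 had differences of both signs, and the median gap between the highest and the lowest was 1.02 log2 units. The widest gaps were in Psme4, Psmd6 and Psma1. The 3 other tested probe sets of Psme4 differed by −1.10 ± 0.53, −0.82 ± 0.50 and −0.20 ± 0.32, the last of which was 0.33 after median centring, and over 10 arrays the 2 extreme ones correlated at −0.63. The second probe set of Psma1 differed by −0.40 ± 0.37 as deposited and by 0.14 after median centring. Psma7, at 0.85 and 0.82, and Psmb3, at 0.71 and 0.78, were the genes whose probe sets lay closest.

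**Figure D5:**
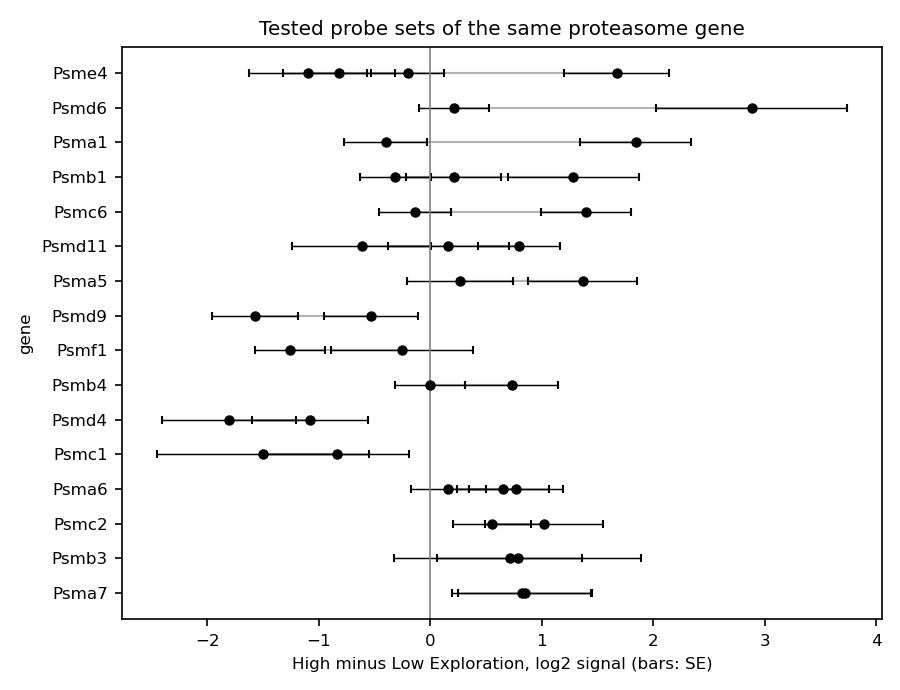
Log2 difference, High minus Low Exploration, of each tested probe set (points, bars SE) for the 16 proteasome genes with more than 1, ordered by the gap between the highest and the lowest. Psme4, at the top, spans −1.10 to 1.67, whereas the probe sets of Psma7, at the bottom, nearly coincide.

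The other 42 member probe sets lay under the signal filter, and 9 genes had no probe set above it (Psma8, Psmb8, Psmb11, Psmc3, Psmc5, Psmd7, Psmd13, Psmg2 and Psmg3). Of the 42, 15 were higher and 27 lower in High Exploration mice. Psma8, a testis form of an alpha subunit, read 5.17 to 7.13 in High Exploration and 5.96 to 8.11 in Low Exploration mice. Psmb11, the catalytic subunit of the thymus, averaged 6.77 ± 1.13 in High Exploration and 7.08 ± 1.17 in Low Exploration mice. The mean of each over the 10 arrays lay below the array median of 7.43, with single mice above it and overlapping groups, and detection calls were not analysed here. Psmc3ip, which is named for its partner and is no subunit, met the naming rule and averaged 9.01 ± 0.51 in High Exploration and 8.78 ± 0.44 in Low Exploration mice.

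Psmd13, a lid subunit, was the only member under the filter whose groups did not overlap, and it is named because of its values. On 1422459_a_at it read 6.94, 7.36, 8.95, 7.09 and 7.69 in High Exploration mice, against 6.94, 4.64, 4.62, 5.23 and 5.48 in Low Exploration mice. The groups were separate by less than the second decimal. The difference was 2.23, with a limma adjusted p of 0.120 when all 45037 probe sets were tested, of which 1.17% were higher without overlap. The 3 other Psmd13 probe sets differed by −0.91, −0.52 and 0.63.

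Genes that work beside the proteasome were taken from a list of 27, of which 18 were tested. In High Exploration mice 13 were higher and 5 lower, with a median of 0.52, where 38.1% of all tested probe sets were higher. At an unadjusted p under 0.05 there were 7, all higher (against 9.67% of all tested probe sets), and none passed. Most of the 18 lie in the top or the next decile of mean signal. Of all probe sets in these deciles 65.6% and 43.6% were higher, and 1207 and 467 of 4504 had such a p upward. Ecpas, which tethers cap and core, averaged 11.59 ± 0.57 in High Exploration and 9.75 ± 0.52 in Low Exploration mice, a difference of 1.84 ± 0.38 (limma adjusted p = 0.0581). Uchl5, a deubiquitinase of the cap, differed by 1.70 ± 0.38 (limma adjusted p = 0.0581) and Ubqln2, which shuttles ubiquitinated proteins to the proteasome, by 1.63 ± 0.41 (limma adjusted p = 0.0642). The lowest of the other tested probe sets was −0.79 for Ecpas and −0.76 for Ubqln2. The groups did not overlap in Ecpas, Uchl5 and Ubqln1 (a difference of 1.24), all higher, against 2.14% of all tested probe sets. In the top decile 305 of 4504 were higher without overlap, and in the next 90 of 4504. The other tested probe set of Ubqln1 differed by −0.19. Of 12 measured genes of the interferon and antigen presentation list 5 were tested, and none passed. Of these 1 was higher and 4 lower, where 38.1% of all tested probe sets were higher. The transcription factors Irf1 and Irf9 differed by −2.30 ± 0.68 and −1.32 ± 0.45 (limma adjusted p = 0.0728 and 0.0908), and B2m, the light chain of class I molecules, by 0.90 ± 0.56.

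Markers of cell types were summed as linear signal, so the brightest marker of a list weighs most. These were Gja1 for astrocytes, Csf1r for microglia, Mbp for oligodendrocytes and Ttr for choroid plexus. Of all tested probe sets 38.1% were higher. The 5 astrocyte markers summed to 39587 to 68111 in High Exploration and 19886 to 37121 in Low Exploration mice, without overlap, and 3 of the 4 tested were higher. All 4 lie in the top decile of mean signal, where 65.6% of all probe sets were higher. Their tested probe sets disagreed, from −0.73 to 1.28 for Gja1, −1.01 to 0.36 for Gfap, −1.72 to 0.80 for Slc1a3 and −0.03 to 0.75 for Aqp4. The 8 microglia markers summed to 10209 to 33113 in High Exploration and 25097 to 46258 in Low Exploration mice, and the 6 neuron markers to 18403 to 23095 in High Exploration and 14330 to 22656 in Low Exploration mice. All 6 neuron markers, hippocampal pyramidal and granule cell genes among them, passed the signal filter, as did 5 of the 8 microglia markers. The 3 tested endothelial markers were all lower, though another tested probe set of Flt1 differed by 0.83. The endothelial list summed to 643 to 1654 in High Exploration and 1264 to 3369 in Low Exploration mice. Of the choroid plexus markers 1 of 4 tested was higher, with sums of 20845 to 34773 in High Exploration and 17005 to 28746 in Low Exploration mice, and of the oligodendrocyte markers 2 of 3, with sums of 47250 to 92750 in High Exploration and 40776 to 103173 in Low Exploration mice. The red blood cell markers, none of them tested, summed to 65.8 to 245 in High Exploration and 189 to 368 in Low Exploration mice. Aldh1l1 of the astrocyte list and Aif1, Cx3cr1 and C1qc of the microglia list lay under the signal filter, and detection calls were not analysed here. The part of these cell types in the proteasome differences was not tested.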

How the data were processed

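Hippocampal RNA of 10 mice was labelled with biotin and hybridised to 1-colour Affymetrix mouse arrays, and the submitters' processing notes name MAS5. The authors deposited MAS 5.0 signal intensities on a linear scale, scaled per array by a constant (the mean after trimming 2% at each end was 500 on every array) and with no further normalisation. The labels give the standard labelling protocol and the methods of the study a double round of amplification, so which was used is not settled here. GEO's design text is about handled mice and was not used. Groups follow the sample titles, with replicates numbered by accession order.

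Of 45101 probe sets 64 controls were left out. Log2 intensity was compared with limma 3.58.1 (lmFit and eBayes, R 4.3.3) over the 22518 probe sets above the median mean signal, with no covariate, and pair ratios by exact permutation over 252 assignments (scipy 1.17.1, Python 3.11.15). The interval of a ratio difference holds the shifts that this test does not reject. Probe sets were named through the platform annotation, and all 103 member probe sets matched RefSeq by Entrez identifier with 0 symbols changed. Named genes were the 5 higher and 5 lower probe sets with the smallest p, the catalytic pairs Psmb5 to Psmb10, the 3 genes with the widest gap between probe sets, Psma8, Psmb11 and Psmc3ip, the leading gene of each class, and 3 genes of the pathway and interferon lists. Members and lists were chosen with earlier results of these data known.

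Precision is limited by having 5 arrays in each group. On simulated data for this comparison over 22518 probe sets limma recovered 1, 16, 42 and 47 of 50 changes of 1, 2, 3 and 4 log2 units, with 5 other calls. Alternatives covered scaling, a control covariate, filters, a pseudocount of 23.0 (the 10th percentile of signals), array weights, an intensity trend, averaged probe sets and each array left out.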

Additional observations from a re-analysis of the deposited data

Results flagged for a closer look

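In 80 groups of 5 values (the named probe sets, the ratios and the member mean), 5 had a single mouse far from the other 4 relative to the range, and chance gives about 1 in 20 groups. Psmf1 (1424370_s_at) read 9.50 in Low Exploration replicate 5, with the other 4 at 9.32 to 9.33. This gap was small in log2 units, and it stood out because the other 4 lay so close. Psmd4 (1425859_a_at) read 4.11 in High Exploration replicate 1, with the others at 6.97 to 7.54, and 7.47 in Low Exploration replicate 4, with the others at 8.57 to 8.91. Psma4 (1460339_at) read 12.67 in High Exploration replicate 3, with the others at 9.48 to 10.32. The log2 ratio of Psmb8 to Psmb5 was −7.97 in Low Exploration replicate 4, with the others at −6.43 to −5.93.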

How the results depend on the processing

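No paired analysis was possible because replicate numbers only name mice in accession order. Member probe sets past the threshold, 0 as deposited, were 3 with median centring, 3 in the top 25% by signal, 7 with array weights and 0 to 4 leaving out each mouse. For the whole array the 3 calls became 906, 713 and 2186 in those settings, 32 with no filter, 366 with the pseudocount, 0 with equal hybridisation controls, 0 with their level as a covariate, and 2 to 1042 leaving out each mouse. The median of member probe sets and of genes was 0.80 and 0.92 with median centring, 0.89 and 1.01 with equal hybridisation controls, and −0.069 and −0.0038 with the covariate. The members' median minus that of all tested probe sets was 0.57 as deposited and 0.055 with the covariate. Leaving out each mouse, these 3 measures were 0.16 to 0.49, 0.22 to 0.57 and 0.45 to 0.83, and members were 57.4% to 68.9% higher. With the covariate 2 of 7 alpha genes were higher, with a median of −0.12, while leaving out each mouse gave 6 to 7 genes and 0.57 to 1.25. The covariate also turned Psmd14 to −0.065, Psmb5 to 0.46, Psmb6 to −0.17, Psmb10 to −0.069, Psmd5 to −0.62, Psma2 to −0.12, Psma3 to −0.25, Psma4 to −0.54, Psma5 to −0.010, Psma7 to −0.27, B2m to −0.65 and the second probe set of Psma1 to 0.013. Median centring, quantile normalisation and equal hybridisation controls turned that probe set to 0.14, 0.088 and 0.23 and Psme4 (1426824_at) to 0.33, 0.32 and 0.42, and quantile normalisation turned Psmd6 (1423696_a_at) to −0.17. Leaving out each mouse, Psma4 was −0.063 (without High Exploration replicate 3) to 0.77. The Psmb8 to Psmb5 ratio difference was 0.13 with averaged probe sets, 0.89 with quantile normalisation, 0.45 with the pseudocount and −0.48 to 0.52 leaving out each mouse, that of Psmb9 to Psmb6 was −1.78 to −0.94 and that of Psmb10 to Psmb7 −1.22 to −0.50. The cause of these shifts was not tested. The covariate overlapped between the groups on few arrays, so covariate and group can hardly be told apart. Of the other comparisons of named genes with an alternative, 566 kept direction and side of the threshold, though not size, and 33 passed it. With the covariate, Psma1 shrank to 0.15, Psme4 to 0.39, Psmd6 to 0.67 and Psmd4 (1418874_a_at) to −0.085.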

Other observations

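Sem1, a small subunit of the cap whose symbol lies outside the naming of the members, was in the pathway list and is named because of its order of mice. It read 14.13, 14.49, 15.86, 12.21 and 12.71 in High Exploration mice, against 13.95, 12.08, 11.53, 11.54 and 11.28 in Low Exploration mice. The difference was 1.80 ± 0.69 (limma adjusted p = 0.112), and High Exploration replicates 1 to 3 lay on top as in Psma2, Psma3 and Psma5.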
